A study of Rattus norvegicus with 17 samples.

Results

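Collagen chains were followed in skin of hairless rats after months of millimetre-wave exposure. The chains were all array probes whose sequence name maps to a symbol of the form Col, number, a, number, with Col17a1 left out. This rule found 25 of 30367 probes, for 18 chains. Of the 25 probes 23 lay well above background on at least 8 arrays and were kept, among 20710 kept probes in all. The other 2 probes, both for Col9a1, were well above background on 3 and 0 arrays. A further 25 chains in the gene name table had no named probe and were not analysed here, among them Col4a2, Col5a2, Col6a1, Col6a3, Col12a1 and Col15a1.

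Skin explants of male CD hairless rats were kept in a preservative and hybridised to 1-colour Agilent arrays. The 9 exposed arrays hold skin of rats exposed to 94 GHz for 3 h a day on 3 days a week over 5.5 months, and the 8 sham arrays hold skin of rats sham exposed on that schedule. The labels give the rats' age as 2 to 3 months, without saying whether before or after those 5.5 months. Sample titles call the rats of both groups young. The design names 6 exposed and 8 sham animals, so some of the 9 exposed arrays may share an animal, and p-values over arrays are then too small. The labels link no array to its rat or its cage, and p-values measure only the spread between these arrays.

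Collagens are triple helices of 3 alpha chains. Types I and III form the bulk of dermal fibrils, with type V inside them. Type IV builds the network of basement membranes, type VI forms beaded filaments around cells, and type VII anchors the epidermis to the dermis. Fibroblasts make most fibril-forming chains, which are modified in the endoplasmic reticulum, trimmed outside the cell and crosslinked.

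Levels are log2 of the processed signal over each array's 75th percentile, so that 1 unit is a doubling, and levels of different probes are not compared. The 75th percentile ran from 788 to 1266, and the share of probes well above background from 66.7% to 70.8%. The brightest probes of Col2a1, Col4a4, Col8a1, Col9a1, Col9a2, Col11a2, Col13a1 and Col23a1 were dim, with median processed signals of only 33 to 82. Basal keratinocyte markers (5 of 5 measured) and fibroblast markers (11 of 11 measured) were well above background on all arrays, and of the cartilage markers Comp and Chad were too, whereas Hapln1 was on 7 exposed and 6 sham arrays and Acan, Matn1 and Cnmd on 4 or fewer in all. Array sham 5 stood apart before any chain is considered. Its fibroblast marker score, the mean log2 level of 11 genes relative to all arrays, was the highest at 0.91, against -0.52 to 0.12 on the other sham arrays and -0.34 to 0.19 on the exposed arrays. Its hair follicle marker score was the lowest, at -5.61. The main results that rest on it are given with and without it. In whole explants, fewer cells of a type and less RNA per cell cannot be told apart.

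Promoters of 3 chains are shown because their genes carry the patterns described here, with Col1a2 and Col5a1 varying together with Col1a1, and Col4a1 read differently by its probes. Of the 18 chains 13 have a promoter in the RefSeq table of build GRCr8, each 250 bases before to 50 bases after the annotated start. From that start the Col1a2 window reads atg, and the Col5a1 window does so a few bases on. Their positions may thus count from the coding start, with transcribed bases inside the window. Where transcription begins was not tested. Capitals mark the motif CCAAT, the motif GGGCGG and the motif TATAAA, each searched on both strands, and a match on the other strand appears as its reverse complement.
Col1a2, chr4:33518307-33518606, + strand: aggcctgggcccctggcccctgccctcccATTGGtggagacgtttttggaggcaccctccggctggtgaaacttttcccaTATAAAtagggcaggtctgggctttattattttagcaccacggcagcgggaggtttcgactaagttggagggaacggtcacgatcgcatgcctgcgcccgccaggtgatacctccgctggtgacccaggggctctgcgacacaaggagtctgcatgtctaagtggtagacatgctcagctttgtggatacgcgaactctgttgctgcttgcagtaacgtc
Col5a1, chr3:31606630-31606929, + strand: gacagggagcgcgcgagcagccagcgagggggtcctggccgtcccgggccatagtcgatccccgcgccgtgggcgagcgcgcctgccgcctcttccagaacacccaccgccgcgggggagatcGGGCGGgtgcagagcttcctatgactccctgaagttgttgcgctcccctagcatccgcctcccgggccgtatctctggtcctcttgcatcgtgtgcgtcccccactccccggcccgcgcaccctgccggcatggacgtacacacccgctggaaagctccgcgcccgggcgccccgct
Col4a1, chr16:84885347-84885646, + strand: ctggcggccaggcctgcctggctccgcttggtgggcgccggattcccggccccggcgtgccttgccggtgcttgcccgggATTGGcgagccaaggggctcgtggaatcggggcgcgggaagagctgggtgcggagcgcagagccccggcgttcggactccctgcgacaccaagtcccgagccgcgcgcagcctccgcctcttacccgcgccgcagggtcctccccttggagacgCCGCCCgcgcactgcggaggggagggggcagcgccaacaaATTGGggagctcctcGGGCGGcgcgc
The Col1a2 window held 1 CCAAT, on the other strand at -221 from the annotated start, and 1 TATAAA at -170. The Col5a1 window held 1 GGGCGG at -127, and neither of the other motifs. The Col4a1 window held 2 CCAAT, both on the other strand at -170 and 24, and 2 GGGCGG, at 39 and on the other strand at -16. The annotated start of Col4a2 lies on the opposite strand, with 76 bases between the starts. Over all 33469 promoters of the table, 37.5% held CCAAT, 33.1% GGGCGG and 14.2% TATAAA on either strand, so that each match is common and is a description only.

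Exposed and sham skin were compared first, to ask whether chronic exposure altered the expression of collagen chains. None of the 18 chains passed the test (limma, Benjamini-Hochberg adjusted p at or above 0.995), and none reached an unadjusted p under 0.05. Over all probes 0 of 20710 (0%) passed, and 863 (4.17%) had an unadjusted p under 0.05, split into 148 (0.715%) with higher and 715 (3.45%) with lower levels in exposed skin. Of the chains 6 were higher and 12 lower in exposed skin, with 41.2% of all probes higher. The median difference was -0.010 log2 units over the chains and -0.019 over all probes. The ranges of the exposed and sham arrays overlapped for all 18 chains. Overlap was not counted over all probes, so whether this is particular to the chains is not known.

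**Figure D1:**
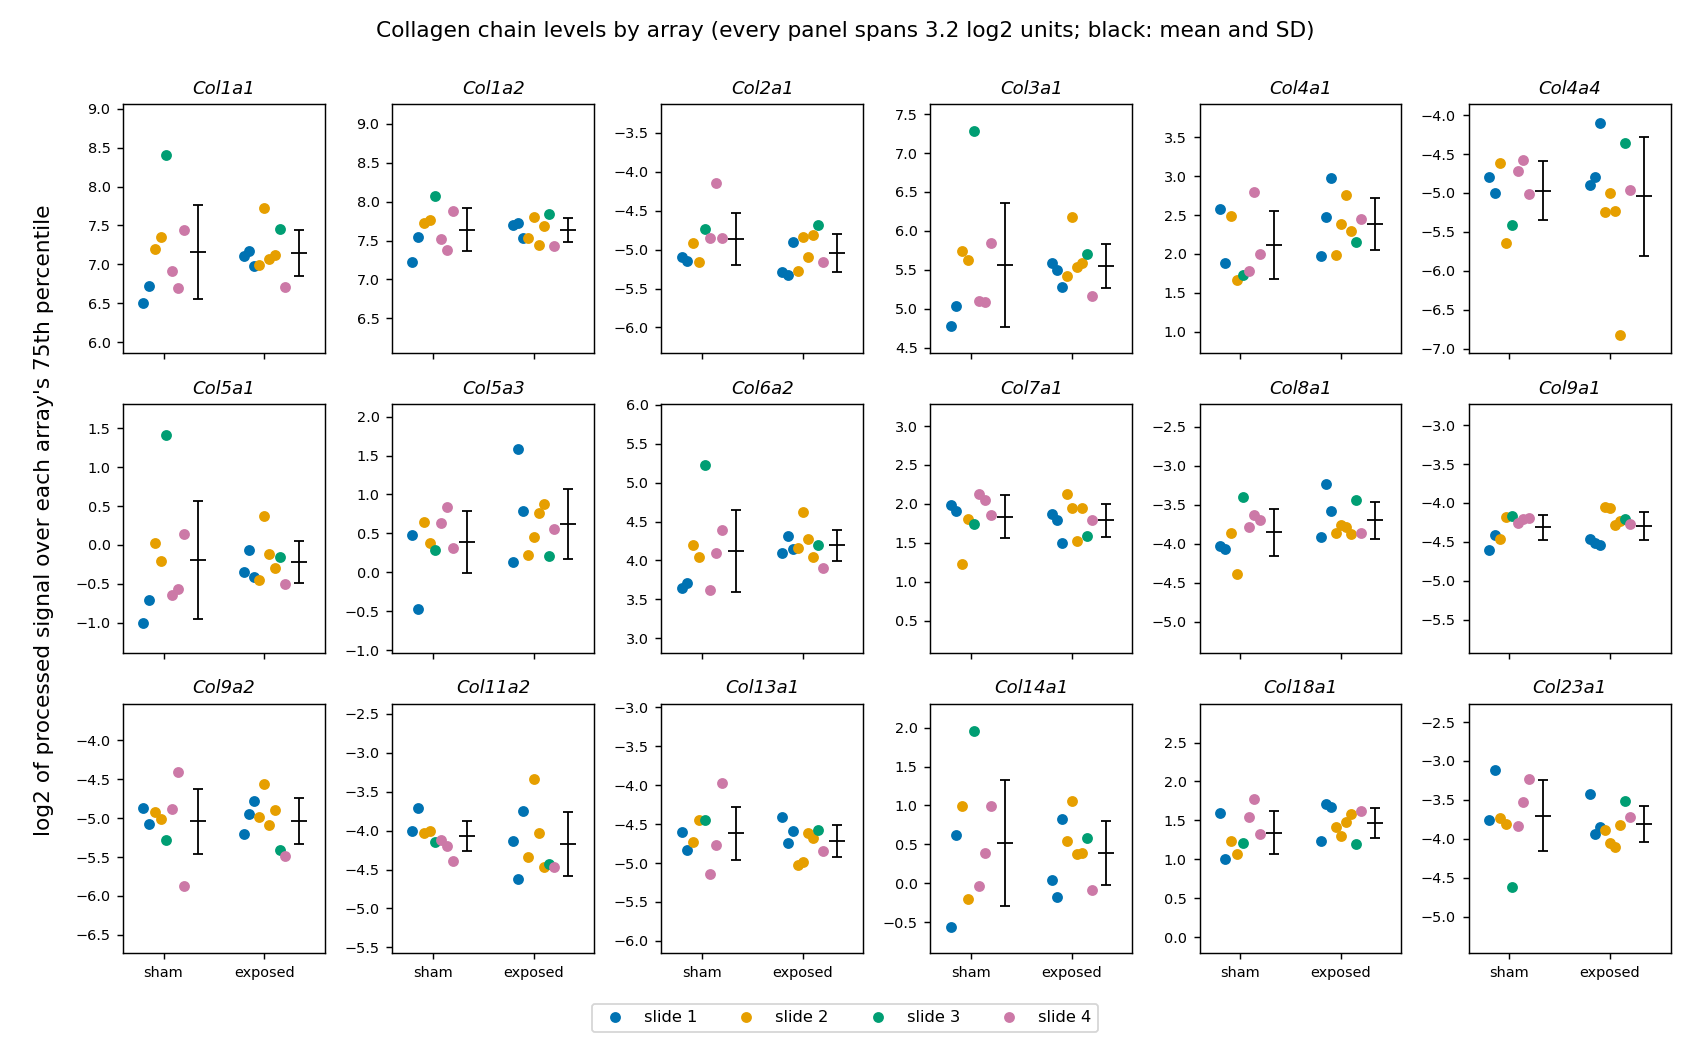
Level of each of 18 collagen chains on 17 arrays, as log2 of the processed signal over the array's 75th percentile, with sham arrays (n = 8) left and exposed arrays (n = 9) right in each panel. Points are arrays coloured by slide, and black bars are the mean and SD. The groups overlap in every panel, and the slide 3 sham array (sham 5) is the highest point for Col1a1, Col1a2, Col3a1, Col5a1, Col6a2 and Col14a1.

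Among the fibril-forming chains, the brightest probes of type I collagen were nearly level between the groups. Col1a1, the major chain of dermal collagen, ranged from 6.71 over a median of 7.10 to 7.73 in exposed skin and from 6.51 over 7.06 to 8.41 in sham skin. The lowest array was sham 1 and the highest sham 5, so that the exposed values lay inside the sham range. The difference was -0.0090 (SE 0.21, 95% interval -0.46 to 0.44, limma adjusted p = 0.999), and the second, dimmer Col1a1 probe differed by -0.14 (-0.80 to 0.51). Col1a2, which pairs with it in the type I trimer, ranged from 7.43 over 7.69 to 7.84 in exposed skin and from 7.22 over 7.64 to 8.08 in sham skin. Its difference was -0.0082 (95% interval -0.23 to 0.21), the narrower interval of the pair. The signs of these small differences turned under quantile and median scaling.

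Col3a1, which co-assembles with type I in skin, ranged from 5.17 over 5.54 to 6.18 in exposed skin and from 4.78 over 5.36 to 7.28 in sham skin. Again sham 1 was lowest and sham 5 highest. The means were 5.55 ± 0.29 (SD, n = 9) and 5.56 ± 0.79 (SD, n = 8), a difference of -0.012 (95% interval -0.57 to 0.55). Col5a1, whose chain limits the diameter of type I fibrils, ranged from -0.50 over -0.30 to 0.37 in exposed skin and from -1.0 over -0.38 to 1.42 in sham skin, with the same extreme sham arrays and a difference of -0.028 (-0.56 to 0.51). Without sham 5 the differences were 0.17 for Col1a1, 0.23 for Col3a1 and 0.20 for Col5a1, again with no adjusted p under 0.916.

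Col5a3, a minor chain of type V, ranged from 0.14 over 0.56 to 1.58 in exposed skin and from -0.47 over 0.43 to 0.84 in sham skin. Sham 2 was the lowest array and exposed 2 the highest, both on slide 1, and the difference was 0.23 (-0.18 to 0.65), or 0.11 without either of them. Col2a1 and Col11a2 encode chains of cartilage fibrils. Col2a1 ranged from -5.33 over -5.10 to -4.69 in exposed skin and from -5.16 over -4.89 to -4.14 in sham skin. It differed by -0.18 (-0.46 to 0.10, unadjusted p = 0.194), or -0.077 without sham 7, its highest array. Col11a2 differed by -0.10 (-0.42 to 0.22).

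The basement membrane chain Col4a1 gave the largest difference of the 18. It ranged from 1.97 over 2.38 to 2.98 in exposed skin and from 1.67 over 1.94 to 2.79 in sham skin, with 7 of 9 exposed arrays higher than the mean of the sham arrays. The means were 2.38 ± 0.33 (SD, n = 9) and 2.11 ± 0.44 (SD, n = 8), a difference of 0.27 (95% interval -0.11 to 0.64, unadjusted p = 0.148, limma adjusted p = 0.995). It was positive on every slide, at 0.24, 0.28, 0.43 and 0.26 on slides 1 to 4, though slide 3 holds 1 array of each group and slide 4 holds 1 exposed array. Without single arrays it ran from 0.19 to 0.36. The upper end came without sham 7, its highest sham array, with an unadjusted p of 0.0431 (limma). Leaving out the sham array that most opposes the difference must lower the p, so this value adds nothing to the test on all arrays. A second, dimmer Col4a1 probe differed by -0.14 (-0.64 to 0.36). Col4a4, a chain of specialised basement membranes, was well above background on 8 of 9 exposed and 6 of 8 sham arrays. It ranged from -6.83 over -4.96 to -4.10 in exposed skin and from -5.64 over -4.90 to -4.58 in sham skin, a difference of -0.073 (-0.67 to 0.52). One array, exposed 7, lay far below the rest, and without it the difference was 0.15.

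Col6a2, of the beaded filament collagen, ranged from 3.91 over 4.15 to 4.62 in exposed skin and from 3.62 over 4.07 to 5.22 in sham skin. Sham 5 was again the highest, and the difference was 0.078 (-0.30 to 0.46), or 0.24 without that array. Col7a1, the chain of the anchoring fibrils, ranged from 1.5 over 1.80 to 2.12 in exposed skin and from 1.23 over 1.88 to 2.13 in sham skin, and differed by -0.049 (-0.29 to 0.19). Col14a1 binds to the surface of fibrils. It ranged from -0.17 over 0.38 to 1.05 in exposed skin and from -0.56 over 0.50 to 1.96 in sham skin, again with sham 1 lowest and sham 5 highest, a difference of -0.13 (-0.73 to 0.48), or 0.080 without sham 5. Its second, dimmer probe differed by -0.32 (-0.84 to 0.21).

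Col18a1, a basement membrane collagen whose end fragment is endostatin, ranged from 1.20 over 1.48 to 1.72 in exposed skin and from 1.01 over 1.28 to 1.78 in sham skin. Its difference was 0.12 (-0.11 to 0.35). Col8a1, a short network-forming chain of vessels, ranged from -3.91 over -3.79 to -3.23 in exposed skin and from -4.39 over -3.82 to -3.40 in sham skin, and differed by 0.15 (-0.11 to 0.42). Of the transmembrane collagens, Col13a1 ranged from -5.02 over -4.68 to -4.41 in exposed skin and from -5.14 over -4.66 to -3.98 in sham skin, a difference of -0.099 (-0.37 to 0.17). Col23a1 ranged from -4.11 over -3.85 to -3.42 and from -4.62 over -3.75 to -3.12, a difference of -0.11 (-0.45 to 0.24). Sham 8 was the highest array for Col13a1, and sham 5 the lowest for Col23a1. Col9a1 and Col9a2 encode chains that coat cartilage fibrils. Col9a1 ranged from -4.54 over -4.27 to -4.06 in exposed skin and from -4.61 over -4.23 to -4.17 in sham skin, a difference of 0.020 (-0.16 to 0.20). Col9a2 differed by -0.0012 (-0.35 to 0.35).

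For 14 of 18 chains the 95% interval lay within 1.5-fold either way, as it did for 87.3% of all kept probes. The intervals of Col4a1, Col4a4, Col5a3 and Col14a1 reached beyond it. A p above the threshold does not show that the chains were alike in the groups.

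**Figure D2:**
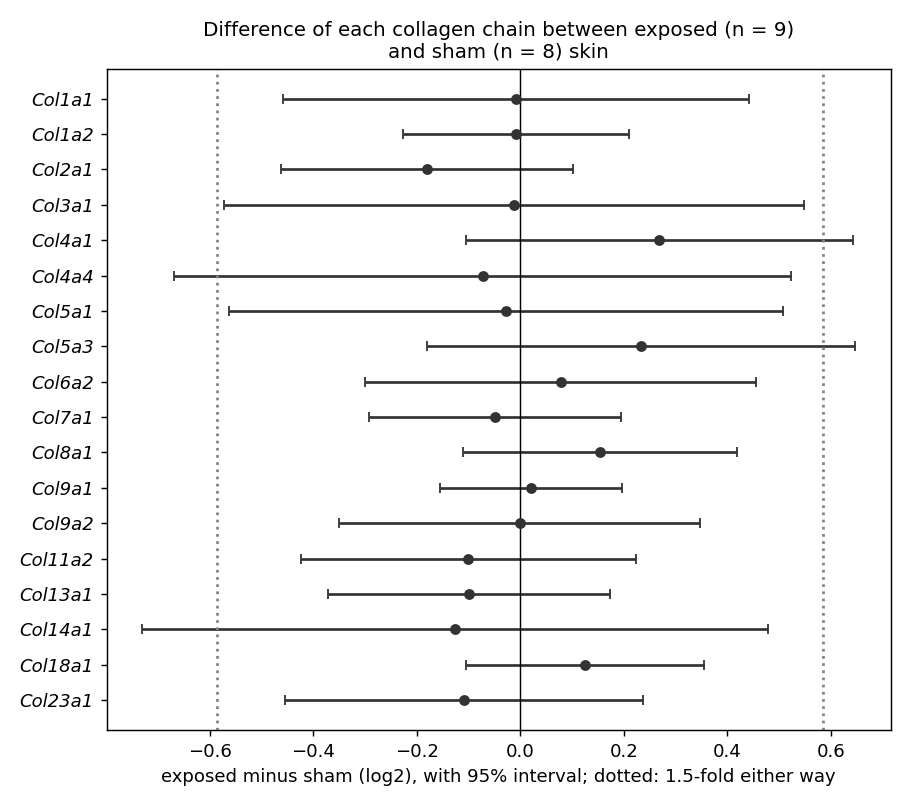
Difference of each of 18 chains between exposed (n = 9) and sham (n = 8) skin, in log2 units on the x axis, with points for the estimate and bars for the 95% interval of the limma fit. All bars cross 0, and 14 of 18 lie inside the dotted lines that mark 1.5-fold either way.

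The median chain varied more between arrays than the median probe. The SD over the 17 arrays had a median of 0.35 log2 units over the chains and of 0.19 over all kept probes, and the lowest and highest arrays differed by a median of 2.62-fold. Probes were not matched for brightness here, and the medians were not taken without sham 5. By the brightest probe of each chain, Col14a1 (SD 0.61), Col4a4 (0.60), Col3a1 (0.56), Col5a1 (0.54) and Col1a1 (0.45) varied most, and Col9a1 (0.17) and Col1a2 (0.21) least. This ranking includes sham 5 and was not made without it. The SD of Col4a4 includes exposed 7 at -6.83, where its probe was not well above background. The dimmer Col1a1 probe had an SD of 0.66. Col3a1 spanned 5.66-fold, more than 93.4% of kept probes by SD, and Col1a2 1.81-fold, near the middle at 55.1%. The part of probe brightness in these spans was not tested. The SD was larger in sham than in exposed skin for 14 of 18 chains, and for 14 of 18 also without sham 5. For Col3a1 the sham SD was 0.79, or 0.41 without sham 5, against 0.29 in exposed skin. Neither the SDs nor their count was tested between the groups. The share of all probes with a larger SD in sham skin was not counted, so this may not be particular to the chains.

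Sham 5 had the highest level of all arrays for 6 chains, namely Col1a1, Col1a2, Col3a1, Col5a1, Col6a2 and Col14a1, and the lowest for Col23a1. The share of all probes highest or lowest on sham 5 was not counted, so this may not be particular to the chains. These 6 chains vary together, as described below, and are not separate observations. The part of the hair follicle and fibroblast marker scores of sham 5 in these levels was not tested.

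The arrays lay on 4 slides, numbered in the sample titles, with both groups on each. Over all probes 0 passed the test between slides, and 8.92% had an unadjusted p under 0.05. Of the chains 4 reached that level, namely Col9a1 (unadjusted p = 0.0025), Col1a1 (0.00777), Col3a1 (0.0108) and Col5a1 (0.0286), and the smallest adjusted p of a chain was 0.381 (limma). Differences within slides ran in opposite directions for Col3a1 and Col5a1. On slides 1 to 4 Col3a1 differed between exposed and sham arrays by 0.55, -0.0035, -1.58 and -0.18, and Col5a1 by 0.58, -0.037, -1.57 and -0.15. Slide 3 holds 1 array of each group, exposed 8 and sham 5, and slide 4 holds 1 exposed array. On slide 1 alone Col1a1, Col3a1, Col5a1 and Col6a2 were higher in exposed skin at an unadjusted p of 0.0156, 0.0151, 0.0168 and 0.0087, with the adjusted p at 1.00 for each (limma, 3 against 2 arrays). On that slide 537 of 20710 probes had an unadjusted p under 0.05, with 393 higher in exposed skin. Col3a1, Col5a1 and Col6a2 also varied with Col1a1, as described below, so these chains are not separate observations.

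The second question was which chains varied together with Col1a1 across explants, whatever their group. A slope of 1 on the Col1a1 level means that a doubling of Col1a1 came with a doubling of the chain. The Col1a1 level was read from its brighter probe (SD 0.45 over the arrays). Its dimmer probe spread wider (SD 0.66), so slopes set against 1 apply to the brighter probe only. Of 17 other chains 5 had a slope past the threshold, against 736 of 20708 probes (3.55%), and all 5 were positive, as were 606 probes (2.93%; negative 0.628%). They were Col3a1, Col5a1, Col14a1, Col6a2 and Col1a2. Over the 17 chains the median slope was 0.11, against 0.016 over all probes. These are chains of the dermal fibrils, of their surface and of the beaded filaments, and the 12 other chains missed the threshold.

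Col3a1 had the steepest slope, 1.22 (95% interval 1.06 to 1.37, limma adjusted p = 5.83e-08), followed by Col5a1 at 1.14 (0.95 to 1.33, adjusted p = 6.76e-07). The interval of Col5a1 covers 1, and that of Col3a1 does so without sham 5 (0.85 to 1.24) and with slide and group as terms (0.95 to 1.49). Col14a1 had a slope of 0.99 (0.52 to 1.47, adjusted p = 0.0196), with a wider interval. Col6a2 was at 0.76 (0.56 to 0.95, adjusted p = 0.00010) and Col1a2 at 0.43 (0.31 to 0.55, adjusted p = 0.000153), both below 1. The Col1a2 probe was the brightest of the chain probes, with a median processed signal of 214363. Whether so high a signal lowers its slope was not tested, so the slope applies to this probe only.

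Sham 5 has much weight in these slopes. Without it the number of probes past the threshold fell from 736 to 77, while Col3a1 (1.05, adjusted p = 4.11e-05), Col5a1 (0.98, 0.000759), Col1a2 (0.51, 0.00419) and Col6a2 (0.66, 0.0447) remained past it. Col14a1 did not, at 0.77 (adjusted p = 0.586), nor did it without sham 1, at 0.90 (0.0698). With slide and group as terms in the fit, 61 probes passed, with Col3a1 (1.22), Col5a1 (1.22) and Col6a2 (0.82) among them, while Col1a2 at 0.47 had an adjusted p of 0.0634 and Col14a1 at 0.94 one of 0.610. Without both sham 5 and exposed 5, the arrays farthest from the median of Col1a1, Col3a1 (1.02), Col5a1 (0.96) and Col1a2 (0.60) passed, and Col6a2 (0.60, adjusted p = 0.289) did not.

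**Figure D3:**
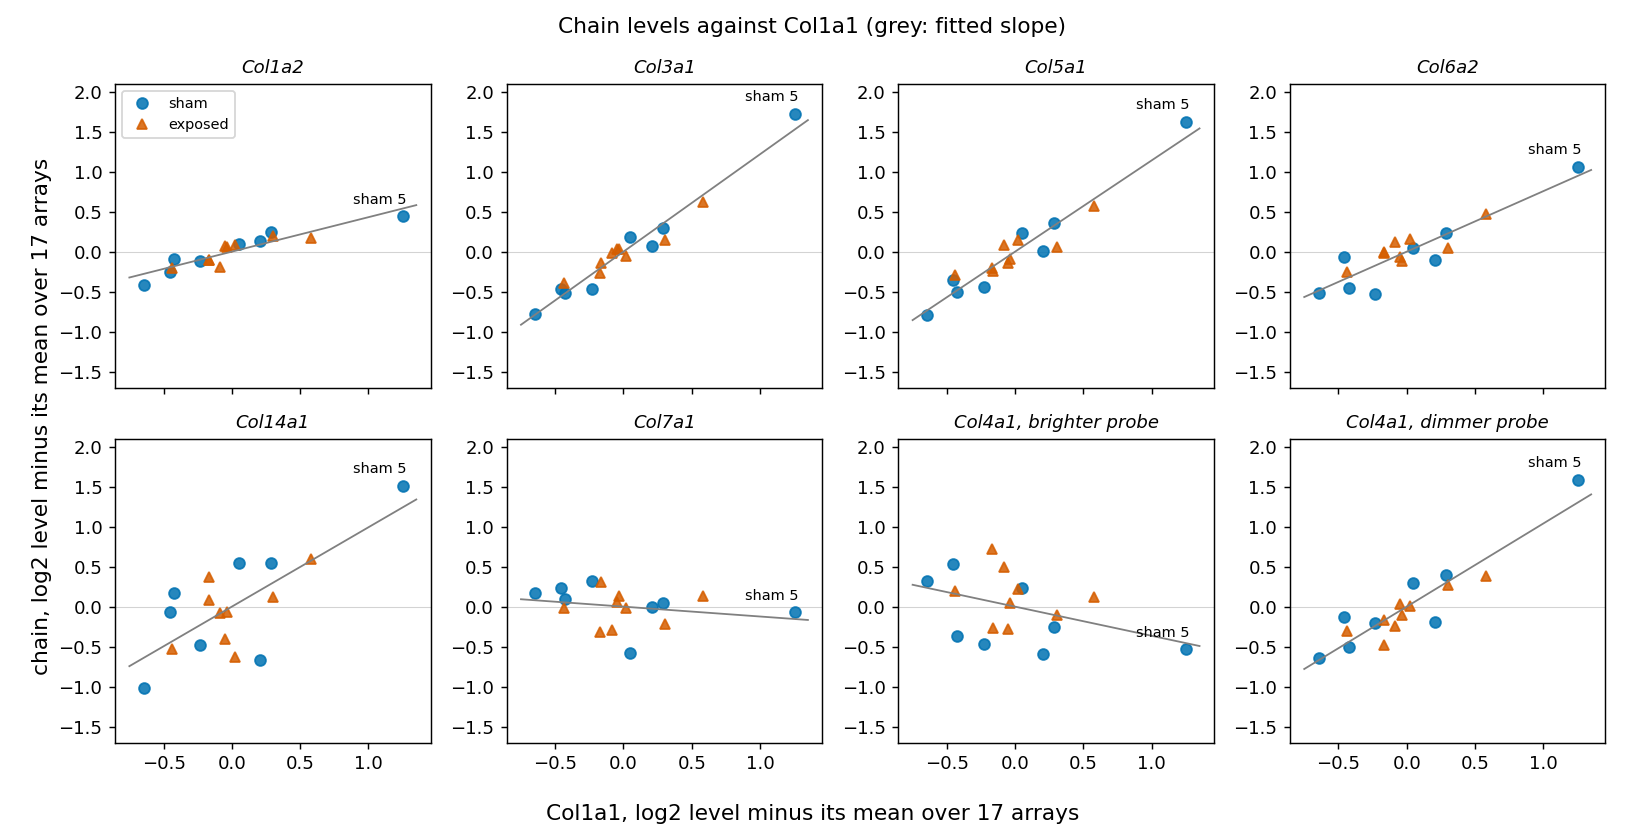
Level of 6 chains and of both Col4a1 probes (y) against the level of Col1a1 (x), each in log2 units minus its mean over 17 arrays, with sham arrays as circles, exposed arrays as triangles and the fitted slope in grey. Col3a1 and Col5a1 follow the line closely in both groups, whereas the Col4a1 probes have slopes of opposite sign (-0.36 and 1.04).

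Of the 10 chain pairs listed as partners 2 could be measured, each across 17 arrays. Col1a1 and Col1a2 correlated at Pearson r = 0.913 and Spearman rho = 0.949, and Col3a1 and Col1a1 at r = 0.975 and rho = 0.958. Each permutation p was 1e-05, the smallest that 100000 resamples can give, and 1e-05 after adjustment over the 2 pairs. Without the 2 arrays farthest from the median of the first chain, r was 0.926 and 0.944 (n = 15). With slide means taken off r was 0.863 and 0.948, and on slide 2, the only slide with 6 arrays, it was 0.762 and 0.940. Under quantile scaling r was 0.779 and 0.977.

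The other chains did not share this pattern at the threshold. Col7a1, made by keratinocytes and fibroblasts, had a slope of -0.12 (-0.39 to 0.15), Col18a1 -0.24 (-0.48 to 0.0074), Col8a1 0.23 (-0.064 to 0.52) and Col13a1 0.20 (-0.095 to 0.50). Col5a3 was at -0.077 (-0.57 to 0.41), so its interval lies below that of Col5a1, the chain it can join in type V. Col23a1 was at -0.42 (-0.76 to -0.082, adjusted p = 0.159) and at -0.14 without sham 5. The slopes of Col2a1 (0.11), Col11a2 (0.060), Col9a1 (0.17), Col9a2 (-0.20) and Col4a4 (-0.27) missed the threshold too.

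Col4a1 was the chain whose probes disagreed most. Its brighter probe had a slope on Col1a1 of -0.36 (-0.78 to 0.050, adjusted p = 0.318) and its dimmer probe one of 1.04 (0.80 to 1.27, adjusted p = 1.95e-05), which stayed past the threshold without sham 5 at 0.80 (adjusted p = 0.0159). The gap between both probes had an SD of 0.73 log2 units over the arrays, against 0.23 to 0.56 for the probe pairs of Col1a1, Col11a2, Col14a1 and Col23a1. Sham 5 was the highest array for the dimmer probe, at 0.52, and had 1.72 on the brighter one, inside the low part of its range from 1.67 to 2.98. Which transcript each probe reads was not tested, so the levels of Col4a1 apply to the brighter probe only. The probes of Col11a2 also differed in sign between the groups, at -0.10 and 0.15. The second probe of Col14a1 had a slope of 0.76 (adjusted p = 0.0755), and the second probe of Col23a1 one of -0.71 (adjusted p = 0.0453).

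Other tissue in the explants was followed by marker scores. The skeletal muscle score ran from -3.10 to 5.45 in exposed and from -3.12 to 4.78 in sham skin, and the hair follicle score from -2.68 to 1.85 and from -5.61 to 1.90. Against the muscle score 197 probes (0.951%) had a slope past the threshold, and 0 of 18 chains did, with slopes from -0.037 for Col7a1 to 0.094 for Col14a1 per unit of score. Against the hair follicle score 1121 probes (5.41%) and 0 chains passed. Col3a1 had the lowest slope on it, at -0.18 (limma adjusted p = 0.0809), and was past the threshold without exposed 4 (-0.21, adjusted p = 0.0452) or exposed 5 (-0.19, 0.0449).

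Genes that fold, cut, crosslink, bind or degrade collagen were taken from 7 lists, with 63 of 86 entries measured. Between exposed and sham skin 0 of the 63 passed the test, against 0% of all probes. Of the 63 only 1 had an unadjusted p under 0.05, against 4.17% of all probes, so the list does not stand out. It was Timp1, an inhibitor of collagenases, at a difference of 0.35 (95% interval 0.012 to 0.69, unadjusted p = 0.0433, limma adjusted p = 0.995). Fibronectin (Fn1), a partner of fibrils, differed by 0.38 (-0.015 to 0.78), the collagen receptor Ddr1 by -0.24 (-0.49 to 0.0091), and biglycan (Bgn) by 0.15 (-0.074 to 0.38). Crtap, of the prolyl 3-hydroxylase complex, differed by -0.10 (-0.22 to 0.011), the growth factor gene Tgfb1 by 0.14 (-0.029 to 0.32) and the crosslinking transglutaminase Tgm2 by 0.15 (-0.10 to 0.41). The other genes named by the rule, P4ha2, Bmp1, Tll1, Loxl1, Itga1, Mmp2 and Tgfb3, lay between -0.18 and 0.19.

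Across arrays many of these genes varied with Col1a1. A slope past the threshold was found for 25 of 63, or 39.7%, with 24 positive and 1 negative, against 3.55% of all probes. Without sham 5 it was found for 4, all positive, against 0.372% of all probes, and with slide and group as terms also for 4, against 0.295%. Both times these were Creb3l1, Fkbp10, Pcolce and Sparc. Creb3l1, a transcription factor of the secretory pathway that acts on collagen genes, had the steepest slope, 1.17 (1.02 without sham 5). Sparc, a collagen-binding glycoprotein, was at 0.91 (0.73), the folding enzyme Fkbp10 at 0.89 (0.74) and Pcolce, which enhances the removal of the C-propeptide, at 0.89 (0.75).

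By role, 5 of 16 folding and modification genes had a positive slope past the threshold, among them the collagen chaperone Serpinh1 at 0.55 (limma adjusted p = 0.000211), and 1 a negative one, the lysyl hydroxylase Plod2 at -0.84 (0.0414). Both missed the threshold without sham 5, with adjusted p of 0.113 and 0.657. For propeptide cleavage the count was 2 of 3 and for crosslinking 2 of 5, Loxl1 (0.63) and Loxl2 (0.85). Of 11 fibril partners 7 passed, with decorin (Dcn) at 1.06 and lumican (Lum) at 0.77. Among 6 receptors the fibrillar collagen receptor Ddr2 did, at 0.61. Of 9 degradation genes 5 passed, with Mmp2 (0.96), Fap (0.97) and Ctsk (0.88) positive, and Mmp9 at -1.93 missed the threshold (adjusted p = 0.0744). Of 13 regulators Creb3l1 and Tgfb2 (0.59) passed, while Tgfb1 was at -0.018 and Smad7 at -0.39. Without sham 5 Creb3l1 stayed past the threshold, while Loxl1, Loxl2, Dcn, Lum, Ddr2, Mmp2, Fap, Ctsk and Tgfb2 missed it. The adjusted p of those that missed it then ran from 0.0508 for Dcn to 0.602 for Lum (limma). Of 11 fibroblast markers 6 passed on all arrays, and 1, Mfap5, a microfibril gene, without sham 5 (0.98) and with slide and group as terms (1.02). Dcn and Lum are in both lists, and the part of fibroblast content in the slopes was not tested.

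**Figure D4:**
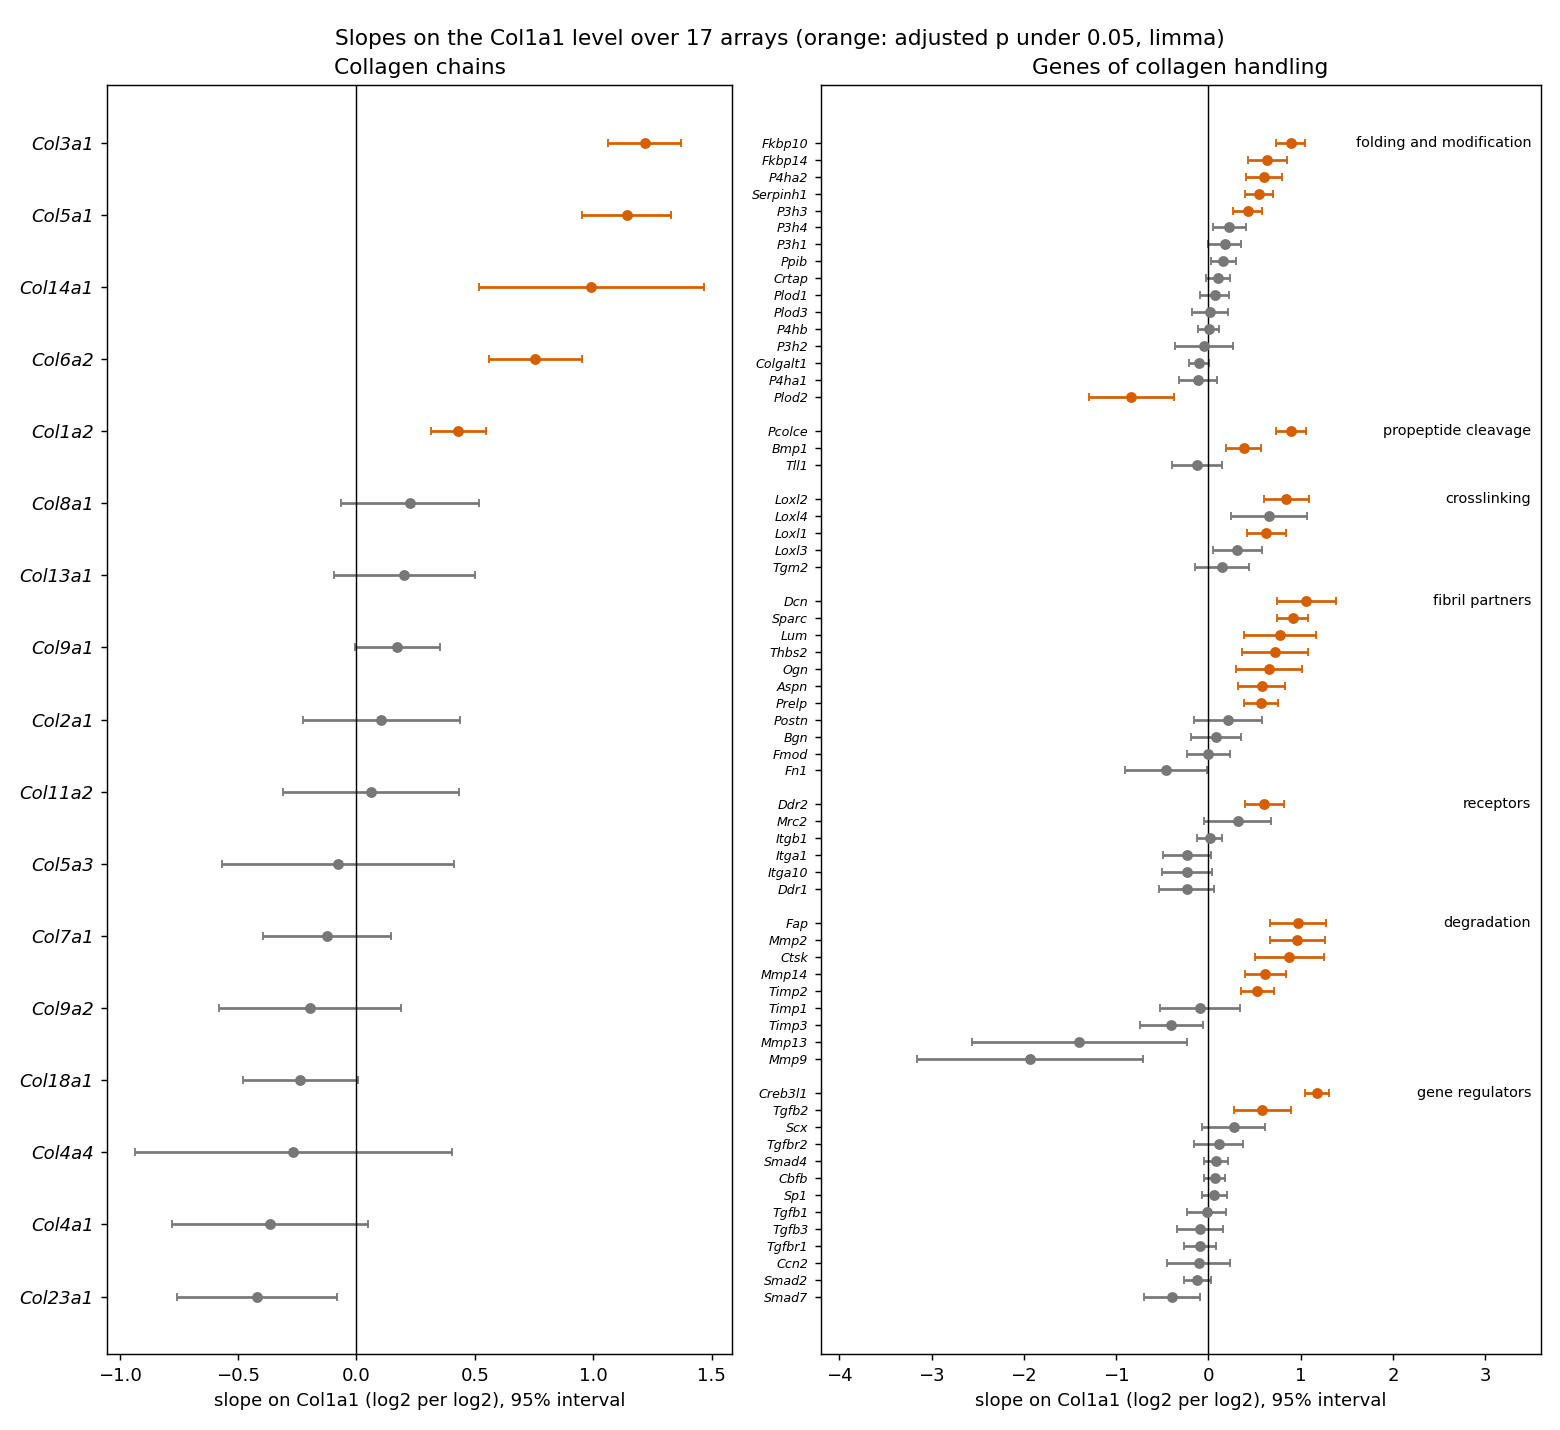
Slope of each gene on the Col1a1 level over 17 arrays (x, log2 per log2) for 17 collagen chains (left) and 63 genes of collagen handling in 7 lists (right), with bars for the 95% interval and orange for an adjusted p under 0.05. On the left 5 chains are orange, and on the right 24 genes are orange above 0 and Plod2 below it. Without sham 5 the orange genes on the right number 4.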

How the data were processed

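RNA of 17 skin explants (9 exposed, 8 sham) was hybridised to 1-colour arrays, 1 array each. The deposited scanner files give linear fluorescence intensity per spot, read by the authors with Agilent Feature Extraction 10.7.3.1, protocol GE1_107_Sep09, on a grid annotated on rn4, per the file headers. The processed signal is background-subtracted there. The authors' deposited value table holds log2 values of 14853 probes, centred on each probe. Correlations of its columns with the scanner values were 0.981 to 0.999, and column medians ran from -0.037 to 0.041. Its scaling is not given in the sources used here.

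Log2 of the processed signal minus the array's 75th percentile over 30367 probes was used. Control and outlier spots were left out and the spots of a probe averaged. Probes well above background on at least 8 arrays were kept, and no spot was saturated. Sequence names were matched to symbols of a RefSeq table of GRCr8, used for names and promoters only. Where several probes of a chain were kept, the one brightest on average stood for it.

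All kept probes were fitted with limma 3.58.1 in R 4.3.3 (moderated test, Benjamini-Hochberg over all of them, threshold 0.05), for exposed against sham, slides, and slopes on the Col1a1 level and on 2 marker scores. The fit was tested on simulated arrays. Correlations used 100000 permutations. The collagen chains and the gene lists were chosen with earlier results of these data known. All chains are described, with ranges for the main dermal, basement membrane and vessel chains, the 2 chains of each class with the smallest p and the 5 with the largest SD. Of each list of collagen genes the 2 with the smallest p between the groups are named, and in the slopes further genes as examples chosen after their values were seen. Alternatives were median and quantile scaling, normexp background correction (offset 50, on the median signal, since the files used here give no mean signal), filters, slide as a block or alone, array weights, the value table, marker scores as covariates and leaving out arrays. Col1a1 as a covariate and slopes without single arrays were added after the data were seen.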

Additional observations from a re-analysis of the deposited data

Results flagged for a closer look

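Of 42 checks of single arrays within a group, over 18 chains and 3 marker scores, 8 found an array farther from the others than Dixon's 95% critical value allows, and chance gives about 1 in 20. Sham 5 was the highest sham array for Col3a1 at 7.28, the highest for the fibroblast marker score at 0.91 and the lowest for the hair follicle marker score at -5.61. Exposed 5 was the highest exposed array for Col5a1 at 0.37. Col2a1 was highest on sham 7 at -4.14, Col5a3 lowest on sham 2 at -0.47, Col7a1 lowest on sham 3 at 1.23 and Col4a4 lowest on exposed 7 at -6.83.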

How the results depend on the processing

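No paired analysis was possible because the labels give no replicate numbers shared between the groups. The number of arrays limits every value. No probe passed between exposed and sham skin under any of the 13 alternatives or without any single array (0 to 0). The unadjusted count over all probes was 537 on slide 1 alone, 724 on slide 2 alone and 598 to 1288 without single arrays. Chains at an unadjusted p under 0.05 numbered 4 on slide 1, 1 on slide 2 and 0 to 1 without single arrays. Of 223 chain differences under the alternatives 187 kept their sign, and 4 of 18 chains never turned; the cause of the turns was not tested. With quantile scaling Col1a1 was at 0.067, Col1a2 at 0.081, Col3a1 at 0.025 and Col9a2 at 0.013, with median scaling Col1a1 at 0.0020, Col1a2 at 0.0028 and Col9a2 at 0.0097. With normexp Col1a1 was at 0.00092, Col1a2 at 0.020 and Col9a1 at -0.055, in the value table Col1a1 at 0.058, Col1a2 at 0.084 and Col3a1 at 0.023. With array weights Col3a1 was at 0.010 and Col9a2 at 0.12, with slide as a block Col4a4 at 0.040. With marker scores as covariates Col1a1 was at 0.040, Col1a2 at 0.013, Col3a1 at 0.047, Col5a1 at 0.019 and Col7a1 at 0.061. On slide 1 Col13a1 was at 0.14, Col14a1 at 0.20, Col1a1 at 0.47, Col1a2 at 0.27, Col3a1 at 0.55, Col4a4 at 0.31 and Col5a1 at 0.58. On slide 2 Col14a1 was at 0.19, Col2a1 at 0.034, Col7a1 at 0.37 and Col9a2 at 0.084, and on slide 4 Col5a3 at -0.037, Col6a2 at -0.13, Col8a1 at -0.16 and Col9a1 at -0.052. Without single arrays Col1a1 ran from -0.10 to 0.17, Col1a2 from -0.068 to 0.054, Col3a1 from -0.12 to 0.23, Col5a1 from -0.14 to 0.20, Col14a1 from -0.28 to 0.080, Col4a4 from -0.19 to 0.15, Col9a1 from -0.022 to 0.051 and Col9a2 from -0.12 to 0.090. For slopes on Col1a1, slide and group as terms left 61 probes and 3 chains, the loss of the 2 farthest arrays 36 and 3, and the loss of single arrays 77 to 875 probes (446 without sham 1) and 4 to 5 chains. For the hair follicle score the probes past the threshold were 294 with slide and group as terms and 707 to 1379 without single arrays (724 without exposed 3, 707 without sham 5), with 0 to 1 chains. For the muscle score they were 106 with those terms, 111 without the 2 farthest arrays and 147 to 216 without single arrays. The correlations of both chain pairs kept their sign and call under all 3 alternatives.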
